A study of Mus musculus with 18 samples.

Results

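The regions described here are DNase I footprints of MEL cells that carried a strong score on both days of the study. A member is a footprint of the day 0 list with a score of -200 or lower that overlapped, by at least 1 bp, a day 5 footprint with a score of -200 or lower. There were 16586 members among 155765 day 0 footprints (10.6%), and they overlapped 16546 of the 158217 footprints of day 5. The members were chosen by the deposited footprint scores of both days, so all score values are given as a description, without a test.

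MEL is a mouse erythroleukemia line, and dimethyl sulfoxide (DMSO) drives it to mature and produce hemoglobin. Day 5 cells had grown for 5 days in medium with 2% DMSO, and day 0 cells were taken from untreated cultures. No culture kept for the same time without DMSO was analysed here, so time in culture and DMSO cannot be told apart. Each day had 2 biological replicates, per the labels, of DNase-seq, of ChIP-seq for the transcription factor PU.1, of RNA-seq and of ChIA-PET with an RNA polymerase II antibody (4H8).

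DNase I cuts DNA where nucleosomes are displaced, and a footprint is a short stretch inside such an open site that is cut less often than its flanks. Bound transcription factors are known to shield DNA in this way, although the depth of a footprint also depends on how long a factor stays bound and on the sequence preference of the enzyme. PU.1 is an ETS family factor of myeloid and B cells. Virus insertion at its gene is known from erythroleukemia lines such as MEL, in which its level falls as the cells mature. ChIA-PET lists pairs of regions that were joined in one immunoprecipitate, here regions held by polymerase II.

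Footprints came as 1 list per day and edges as 1 list per day, so neither has replicate values, while DNase sites and PU.1 peaks were listed per replicate. Read depth is unknown for every library. The lists of PU.1 peaks differed in length, with 10714 and 18614 peaks in day 5 replicates 1 and 2, against 34590 and 46077 peaks in day 0 replicates 1 and 2. In RNA, 7 erythroid marker genes (globins, Alas2, Gata1 and others) summed to 29589 and 24809 FPKM on day 5, against 1722 and 1158 FPKM on day 0. Of the 4 myeloid and 2 T cell markers, Mpo, Csf1r, Elane and Cd3e were listed at 0 in all 4 libraries. Cd8a held 0.280 and 0.474 FPKM on day 5 and was listed at 0 on day 0, and Cebpe was listed at 0 except for 0.124 FPKM in day 5 replicate 2. The B cell list summed to 0 FPKM in both day 5 libraries, against 0.181 and 0 FPKM in the day 0 libraries. Of the 3 megakaryocyte markers, Itga2b held 104 and 92.8 FPKM on day 5, against 15.4 and 7.32 FPKM on day 0. Pf4 held 28.1 and 13.0 FPKM on day 5, against 41.4 and 8.39 FPKM on day 0. The third, Gp1bb, held 1.75 FPKM in day 5 replicate 2 and 4.6e-11 FPKM or less in the other libraries. All values come from bulk samples, in which fewer cells with a bound or open site and a weaker signal in every cell cannot be told apart.

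Nearly every strong day 0 footprint had some day 5 counterpart. Of 18369 day 0 footprints at -200 or lower, 18362 overlapped a day 5 footprint of any score, and 90.3% were members. Seen from day 5, 78.3% of the 21130 strong footprints overlapped a member. The other classes used for comparison were 1783 footprints strong on day 0 alone, 5574 strong on day 5 alone, 91767 weaker on both days and 40055 absent from the day 5 list. Members made up between 9.18% and 11.4% of the day 0 footprints of each chromosome that held any, and 0 lay on chromosome Y.

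Pairing between the days was almost one to one. Of the members, 16551 had 1 strong day 5 partner and 35 had 2 or more, while 74 day 5 footprints spanned 2 or more members. Over the 16622 member and partner pairs, both ends were the same base in 17.8%, and both ends lay within 5 bp in 57.4%. The median difference between the starts was 0 bp.

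Scores of members had a median of -479 on day 5 (quartiles -723 and -337) and of -378 on day 0 (quartiles -561 and -274). The score was lower, that is stronger, on day 5 for 12680 members (76.5%), lower on day 0 for 3060 and equal for 846. Among footprints weaker on both days the day 5 score was the lower in 56.8%. All 846 equal scores sat at -1000, the lowest value the lists hold, which 1970 members reached on day 5 and 916 on day 0. At the boundary, the members just inside had a day 0 score of -200.016 (chr8:107965488-107965543), a day 0 score of -200.071 (chr2:105139216-105139261) and a day 5 score of -200.074 (chr4:149646981-149647029). Just outside, day 0 scores were -199.997 (chr17:27657694-27657757), -199.968 (chr12:55980813-55980869) and -199.957 (chr10:18322022-18322077), with day 5 scores of -365, -235 and -280. Coordinates throughout are mm9, counted from 1.

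Members were wide. Their day 0 footprints had a median width of 62 bp, with 5th and 95th percentiles of 45 and 86 bp, against a median of 29 bp for all other day 0 footprints (quartiles 23 and 45 bp). The overlapping day 5 footprints had a median of 63 bp, and the bases shared by both days a median of 59 bp. Widths between 45 and 80 bp held 88.1% of members and 24.2% of the others, while widths of 25 bp or less held 20 members (0.121%) and 48.3% of the others. Width may enter the score that chose the members, so this is a description.

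The most frequent width of members was 62 bp (1004 members). Lower local peaks lay at 50 bp (629 members), 56 bp (623), 58 bp (606), 69 bp (450), 71 bp (400) and 75 bp (399). All other footprints peaked at 25 bp, with 30521 footprints, and at 37 bp, with 5536. They too had local peaks at 50 bp (3493) and 62 bp (924), so these widths were not particular to members. Next to the 25 bp peak there were only 269 at 24 bp and 597 at 26 bp, and up to 25 bp nearly all widths were odd numbers. Whether the footprint caller set this pattern was not tested. Footprints strong on day 0 alone had a median width of 58 bp, those strong on day 5 alone 51 bp, those weaker on both days 35 bp and those absent from the day 5 list 25 bp. Above 100 bp there were 321 members, with median scores of -603 on day 5 and -489 on day 0. The 660 members of 44 bp or less had median scores of -356 on day 5 and -274 on day 0.

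**Figure D1:**
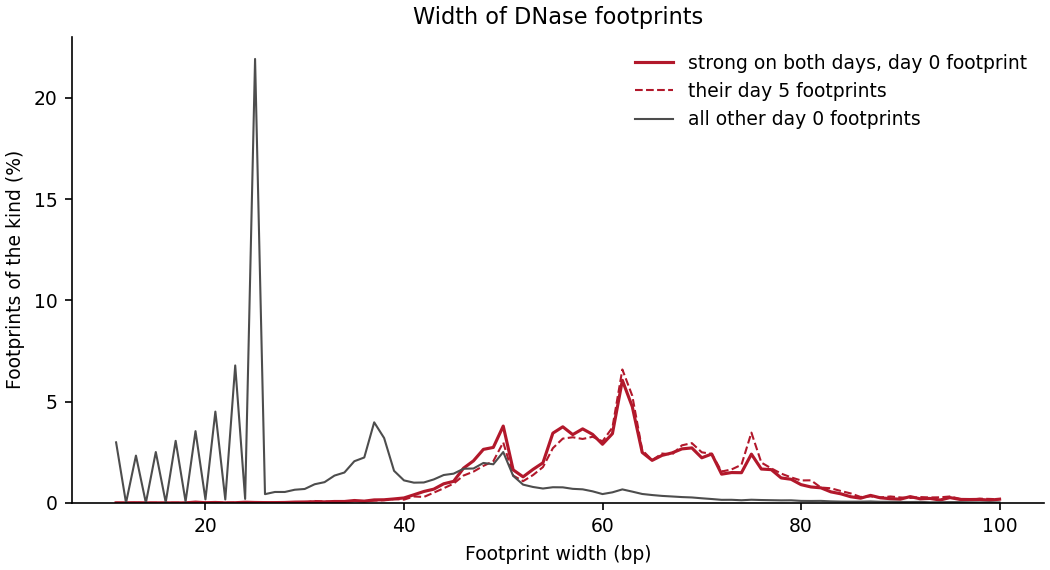
Share of footprints at each width, in percent of the kind, up to 100 bp: members by their day 0 footprint (solid red), the day 5 footprints that overlap them (dashed red) and all other day 0 footprints (grey). Members gather between 45 and 80 bp with a peak at 62 bp, and the others have their tallest peak at 25 bp.

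All 16586 members lay in a DNase site of the list that the authors consolidated over both days, as did nearly all other day 0 footprints. These were 13677 sites, of 54223 sites with any day 0 footprint and 310860 sites in all. The sites were long, with a median of 1296 bp, against 690 bp for sites that held other footprints only. Members lay a median of 178.5 bp from the centre of their site, which was 12.0% of the site width, against 13.9% for the other footprints.

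Most sites with a member held just 1. That was so for 11633 sites (85.1%), while 1497 held 2, 366 held 3, 127 held 4 and 54 held 5 or more. As a result 4953 members (29.9%) shared their site with another member. Another 4897 members (29.5%) were the only day 0 footprint of their site, against 18.2% of all other day 0 footprints. Neighbouring members on a chromosome were a median of 30564 bp apart, but 1412 of 16566 gaps (8.52%) were 50 bp or less and a further 869 were over 100 bp and up to 1000 bp. Members per site and gaps were counted for members only, so they do not set the clustering of members apart from that of other footprints.

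Sites with several members were longer and richer in footprints of every score. Their median width was 1052 bp with 1 member, 2714 bp with 2, 3248 bp with 3 and 4033 bp with 4 or more. In the same order, the median number of day 0 footprints in the site was 2, 8, 12 and 17. This median was taken over members, so sites with many members weigh more. Member width changed little with the number of members in the site, with medians of 62, 60, 59 and 58 bp. Median scores were -474 on day 5 and -373 on day 0 for lone members, and -548 on day 5 and -437 on day 0 where 4 or more shared a site.

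The site with the most members was chr17:39979247-39985978, which held 42 members among 64 day 0 footprints. Its members were 44 to 313 bp wide (median 90.5 bp), and 18 of them were at -1000 on both days. It had DNase site scores of 1988 and 1841 in the day 5 replicates, against 2154 and 2753 in the day 0 replicates. Of its 42 members, 31 and 25 lay in a PU.1 peak of day 5 replicates 1 and 2, against 10 and 34 in day 0 replicates 1 and 2, so the days overlapped. Next came chr19:12078610-12087482 and chr3:96302309-96308333 with 11 members each, and chr11:3091178-3097125 and chr11:48665890-48673423 with 9 each. In chr19:12078610-12087482 and chr11:48665890-48673423, 0 of the members lay in a PU.1 peak of any replicate. In chr3:96302309-96308333, 4 and 3 of the 11 lay in a peak of the day 5 replicates, against 3 and 4 in the day 0 replicates. In chr11:3091178-3097125, 4 and 3 of the 9 lay in a peak of the day 5 replicates, against 7 and 8 in the day 0 replicates.

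DNase site scores at members had medians of 103 and 136 in day 5 replicates 1 and 2, against 247 and 219 in day 0 replicates 1 and 2. Both day 5 medians were below both day 0 medians, although the footprint scores of most members ran the other way. At footprints weaker on both days the medians were 81.7 and 104 on day 5, against 230 and 184 on day 0. These scores come from the libraries the rule used and are not tested.

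A small set stood far above these values. In 19 sites with a DNase score over 1000 in at least 1 replicate lay 109 members, with a median width of 83 bp, and 56 of them were at -1000 on both days. Since 846 members tied at the lowest summed score, the 5 to be named were taken as 1 per site with the highest summed site scores, an order chosen after the values were seen. The first, chr2:98506393-98506450, lay in a site scored 8198 and 8298 on day 5, against 5522 and 7751 on day 0. The others were chr6:103599056-103599122, chr12:3109913-3110128, chr2:98505027-98505122 and chr2:98502398-98502639, with widths of 67 to 242 bp. These 5 lay in no PU.1 peak and in no vertex of the contact lists, but other members of the set did meet PU.1 peaks. Of the 109 members, 52 and 37 overlapped a peak of the day 5 replicates, against 27 and 58 in the day 0 replicates, and 94 lay in no vertex. The site with 42 members is among these 19 sites, and it alone had 31 and 25 members in a peak on day 5, against 10 and 34 on day 0. The PU.1 counts of the set thus came in large part from 1 site. What set the DNase scores of these 19 sites apart was not tested.

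PU.1 peaks were made from libraries that the rule did not use. Of the 16586 members, 1894 (11.4%) and 1956 (11.8%) overlapped a peak of day 5 replicates 1 and 2, against 2309 (13.9%) and 3424 (20.6%) in day 0 replicates 1 and 2. The shares of all day 0 footprints were 8.08% and 11.2% in the day 5 replicates, against 17.7% and 24.2% in the day 0 replicates. Members were thus above the share of all footprints in both day 5 replicates and below it in both day 0 replicates. With peaks merged over replicates by the authors, 499 members (3.01%) were in a day 5 peak, against 1081 (6.52%) in a day 0 peak, where all footprints gave 3.61% and 10.6%. The merged lists may also leave out regions that the replicate lists hold, so merging need not be the only difference.

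On average 11.6% ± 0.264 of members lay in a peak on day 5, against 17.3% ± 4.75 on day 0 (SD, n = 2 each), a difference of -5.68 percentage points. Both day 5 replicates were below both day 0 replicates, and the exact two-sided permutation p was 0.333, the smallest that 2 against 2 allows. With members within 50 bp of a summit the difference was -2.17 points and the replicates of the days overlapped (exact permutation p = 1.0), and with the merged lists it was -3.51 points. The direction depended on how many peaks were taken. With the 10714 top peaks of every replicate the share was 9.56% on day 5, against 5.34% on day 0. Day 0 replicate 2 also weighed on the size: without it the difference was -2.32 points, and without day 0 replicate 1 it was -9.04 points.

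Against the other classes of footprint, members lay in PU.1 peaks less often than those strong on day 0 alone in all 4 libraries. The differences were -1.48 and -5.54 percentage points on day 5 and -10.3 and -10.1 points on day 0. The exact two-sided sign-flip permutation over the 4 libraries gave p = 0.125, the smallest it allows. Footprints strong on day 0 alone were at 12.9% and 17.3% on day 5, against 24.2% and 30.8% on day 0. Set against footprints weaker on both days (6.88% and 10.0% on day 5, 15.1% and 21.5% on day 0), members differed by 4.54 and 1.78 points on day 5 and by -1.19 and -0.905 points on day 0. That gave an exact sign-flip permutation p of 0.625, and the difference of this contrast between the days, 4.203 points, had an exact permutation p of 0.333. Footprints strong on day 5 alone were close to members, at 11.2% and 11.5% on day 5, against 13.3% and 20.7% on day 0. Footprints absent from the day 5 list had 8.81% and 13.5% on day 5, against 25.7% and 31.8% on day 0.

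**Figure D2:**
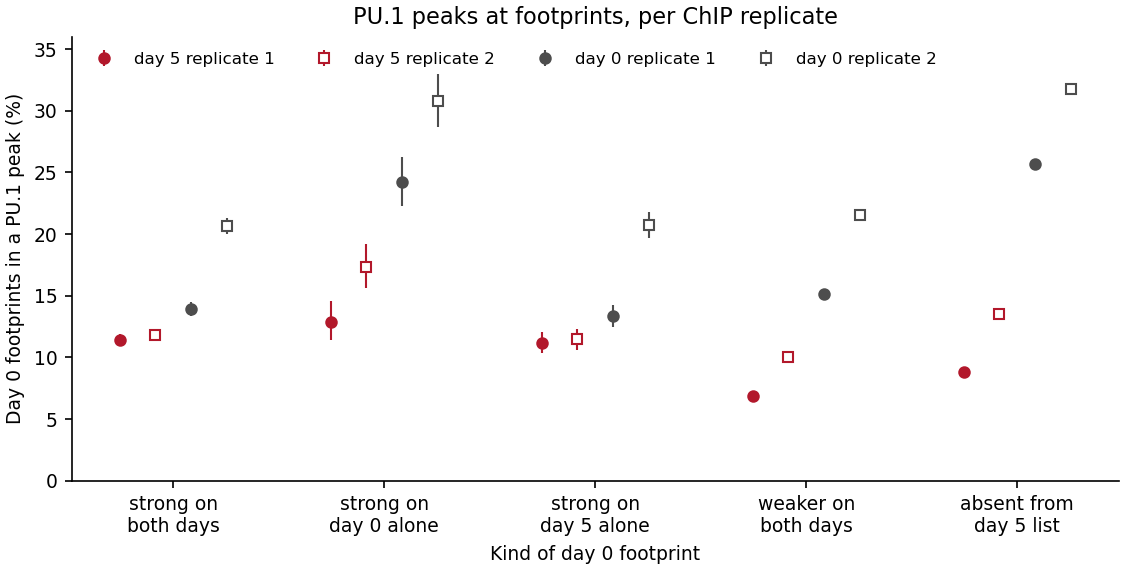
Percent of day 0 footprints of each kind that overlap a PU.1 peak of day 5 (red) and day 0 (grey), 1 marker per ChIP replicate (circles replicate 1, squares replicate 2), with exact Clopper-Pearson 95% intervals that cover counting error only. Members, at the left, have day 5 shares of 11.4% and 11.8% and day 0 shares of 13.9% and 20.6%.

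The PU.1 share of members varied with the size of their site. Of members that were the only footprint of their site, 1.92% and 3.94% lay in a peak on day 5, against 4.02% and 6.62% on day 0. Other lone footprints were at 3.16% and 5.29% on day 5, against 9.57% and 12.5% on day 0. In sites with 10 or more footprints, members were at 22.1% and 18.5% on day 5, against 22.4% and 32.6% on day 0, and the other footprints of such sites were at 8.37% and 11.2% on day 5, against 18.3% and 25.6% on day 0. In sites with 2 to 4 footprints, members were at 7.05% and 9.46% on day 5, against 11.9% and 16.6% on day 0. The others there were at 8.99% and 13.9% on day 5, against 22.5% and 28.8% on day 0. Members were thus below the others as the only footprint and in sites with 2 to 4, and above them in sites with 10 or more. This held in all 4 libraries, and also when footprint centres were counted. In sites with 5 to 9 footprints the order in day 0 replicate 1 turned with the measure: members were at 20.4% and the others at 20.0% by overlap, and at 18.4% and 18.8% by centres.

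Members and other footprints were also compared over the sites that held both. The shares were pooled over these sites and no difference per site was formed, so sites with many footprints weigh more. In the 8697 sites that held members and other footprints, 15.6% and 15.3% of members overlapped a day 5 peak and 18.2% and 26.8% a day 0 peak, while the other footprints there were at 7.95% and 10.4% on day 5 and at 16.4% and 23.1% on day 0. A wider footprint meets a peak more easily, so the centres were also counted. The centre lay in a peak for 13.1% and 12.7% of these members on day 5 and for 16.5% and 23.9% on day 0, against 6.75% and 9.09% of the other footprints on day 5 and 15.2% and 21.3% on day 0. Members were higher in 4 of 4 libraries by either measure. Set against footprints weaker on both days only, the share of members with their centre in a day 0 peak differed by 2.86 points in these sites. Over all sites that difference was -1.48 points.

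**Figure D3:**
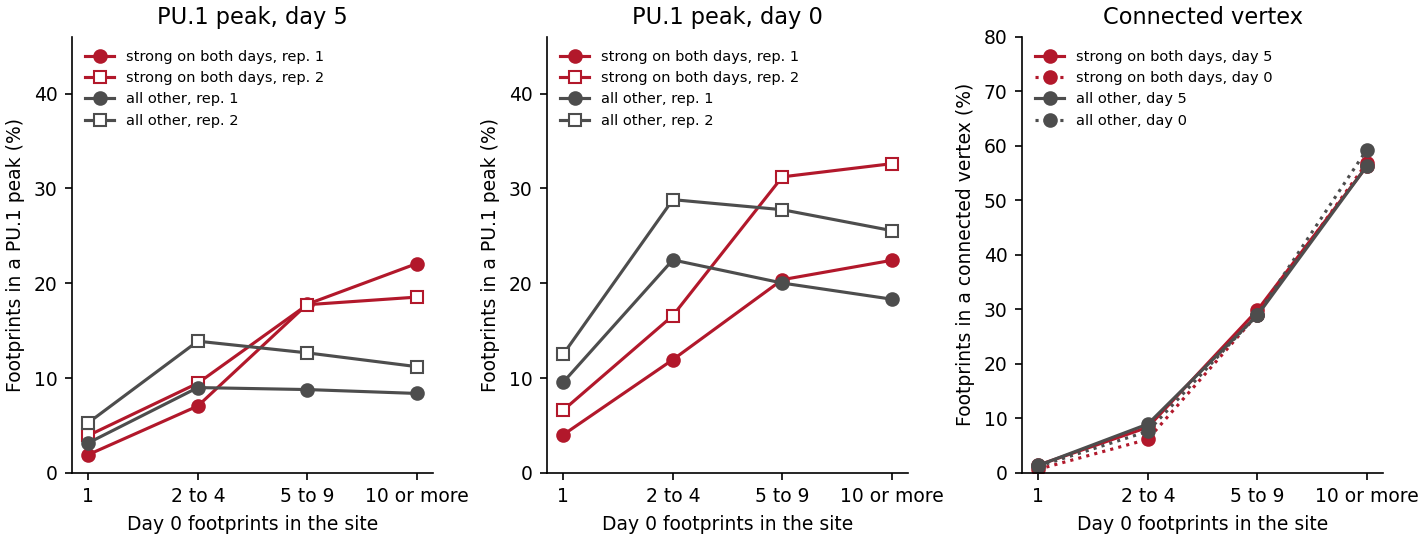
Percent of footprints in a PU.1 peak on day 5 (left) and day 0 (middle), per ChIP replicate, and in a connected vertex (right, solid for day 5 and dotted for day 0), by the number of day 0 footprints in the site, for members (red) and all other day 0 footprints (grey). PU.1 shares of members climb from the smallest to the largest sites and cross those of the others, while the connected shares of both kinds nearly coincide.

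The PU.1 share also went up with the number of members in a site. Lone members were at 7.40% and 9.47% on day 5, against 11.2% and 16.5% on day 0. Members in sites with 4 or more were at 27.9% and 21.3% on day 5, against 23.0% and 35.0% on day 0. By width the share was higher at both ends of the range. Members of 55 to 64 bp were at 9.83% and 10.3% on day 5, against 12.2% and 18.9% on day 0. Those of 44 bp or less reached 21.7% and 18.0% on day 5, against 20.0% and 30.6% on day 0, and the 321 members over 100 bp reached 27.1% and 25.2% on day 5, against 24.3% and 37.1% on day 0. The shares in this paragraph were made for members only and by overlap, not by centres, so they do not set members apart. The site with 42 members falls in the group of 4 or more, and its part in these shares was not tested.

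Most members lay in no listed PU.1 peak. No peak of any of the 4 replicates touched 12282 members (74.1%), and all 4 replicates had a peak at 990 (5.97%). These counts were made for members only, so they do not set members apart. Most day 0 footprints of any kind also missed the peaks of each replicate, with 8.08% to 24.2% overlapping one. Where both day 0 replicates had a peak (2065 members), both day 5 replicates also had one at 47.9% of members and at least 1 at 74.96%. For footprints weaker on both days these shares were 35.6% and 63.4%. The other strong classes were closer to members, at 47.0% and 74.3% for day 5 alone and at 44.1% and 71.2% for day 0 alone. Members were also above weaker footprints at like day 0 peak strength. With a mean day 0 -log10 p under 15, at least 1 day 5 peak remained at 57.7% of members and 42.5% of weaker footprints, between 15 and 30 at 84.1% and 65.6%, and at 30 or more at 91.5% and 81.1%. For footprints strong on day 5 alone the shares were 57.7%, 85.3% and 91.9% in the same order of strength, so these shares were not particular to members. Those strong on day 0 alone were at 43.5%, 64.4% and 89.8%, near weaker footprints below 30 and near members at 30 or more. Their day 0 peaks were stronger, with median -log10 p of 25.7 and 28.7 in replicates 1 and 2, against 16.6 and 18.3 at members. Centres were not counted here, and members were wider than weaker footprints. No test was made over these footprints, which share libraries and often sites.

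Peaks at members had a lower median -log10 p, the authors' value, than peaks at other footprints in each replicate. The medians were 7.82 and 9.78 for day 5 peaks holding a member and 14.4 and 11.1 for such day 0 peaks, against 10.1 and 12.2 on day 5 and 19.3 and 13.7 on day 0 for peaks holding other footprints only. Peaks with a member made up 14.1% and 9.03% of the day 5 lists, against 5.60% and 6.23% of the day 0 lists. Peaks holding other footprints only were also a larger part on day 5, at 42.8% and 38.8%, against 29.8% and 30.4% on day 0. Measured from the summit, the highest point of a peak, the overlapping member's centre lay a median of 44.5 and 47.5 bp away on day 5, against 61.5 and 58.5 bp on day 0. For other footprints it was 41.0 and 42.0 bp on day 5, against 58.0 and 57.5 bp on day 0, so both kinds were nearer to the summit on day 5.

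Merged peaks of both days covered 434 members, a count made for members only. Of all day 0 footprints, 3.61% lay in a merged day 5 peak and 10.6% in a merged day 0 peak. The highest summed merged score was at chr19:53603506-53603562, a member of 57 bp at -1000 on both days, with a fold enrichment of 30.1 and 38.9 on day 5, against 44.6 and 50.5 on day 0. The next was chr9:22030047-22030128, also at -1000 on both days, with 17.3 and 21.7 on day 5, against 25.1 and 29.0 on day 0. At chr18:38509809-38509871 the fold enrichment was 30.2 and 43.6 on day 5, against 78.7 and 78.5 on day 0. The remaining 2 were chr5:150057859-150057912 and chr8:125224794-125224869. In all 5, both day 5 fold enrichments were below both day 0 values, and each site held 7 to 23 day 0 footprints.

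Contacts were read from vertices, the intervals of at least 1 kb between which the authors listed edges. Of the members, 15986 (96.4%) lay in a 1 kb vertex. A vertex with at least 1 edge held 3674 members (22.2%) on day 5, against 3538 (21.3%) on day 0, where all day 0 footprints gave 26.5% on day 5 and 26.9% on day 0. The share of members was therefore below that of all footprints on both days. It was 15.5% for vertices connected on both days, with 1104 members (6.66%) connected on day 5 alone and 968 (5.84%) on day 0 alone. All other day 0 footprints were higher in each, at 19.5% on both days, 7.47% on day 5 alone and 8.04% on day 0 alone. Footprints strong on day 0 alone were at 22.0% on day 5, against 22.8% on day 0, and those weaker on both days were at 29.7% on day 5, against 29.9% on day 0. With 1 edge list per day, none of these shares has a replicate error.

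As for PU.1, the connected share followed the number of footprints in the site. Of members that were the only footprint of their site, 1.43% were connected on day 5, against 0.653% on day 0, and the other lone footprints were at 1.36% on day 5, against 1.18% on day 0. In sites with 10 or more footprints 56.2% of members were connected on day 5, against 56.9% on day 0, and the other footprints were at 56.3% on day 5, against 59.3% on day 0. Members with no other member in their site were connected in 13.2% on day 5, against 12.2% on day 0, and members in sites with 4 or more in 55.3% on day 5, against 55.9% on day 0.

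Counted by vertex, the order was the reverse. Of the 13427 vertices with a member, 17.8% had an edge on day 5, against 16.9% on day 0. Among the 40094 vertices with other footprints only, 6.44% had one on day 5, against 6.28% on day 0, and among the 76762 with no day 0 footprint 0.323% on day 5, against 0.391% on day 0. Vertices with a member were 10.3% of all vertices, but 45.8% of the 5222 connected on day 5 and 44.6% of the 5084 connected on day 0.

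Vertices with a member were also wider, with a median of 1296 bp, against 1000 bp for both other kinds. Within each width class those with a member had the higher share. Between 2 and 3 kb, 34.3% of vertices with a member were connected on day 5, against 33.0% on day 0, and those with other footprints only were at 21.6% on day 5, against 20.5% on day 0. Above 3 kb the values were 58.0% on day 5, against 61.4% on day 0, with a member, and 40.6% on day 5, against 46.7% on day 0, with other footprints only. In both classes vertices with a member held more footprints, with medians of 7 against 4 between 2 and 3 kb and of 11 against 7 above 3 kb. The part of footprint number in the vertex shares was not tested.

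**Figure D4:**
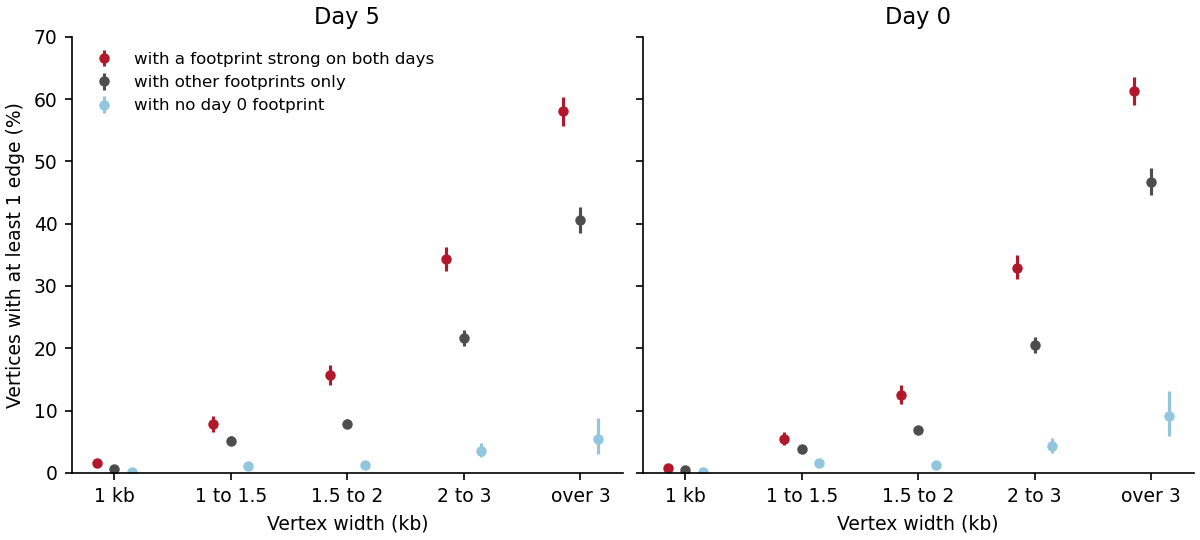
Percent of 1 kb vertices with at least 1 edge on day 5 (left) and day 0 (right) by vertex width in kb, for vertices with a member (red), with other footprints only (grey) and with no day 0 footprint (blue), with exact Clopper-Pearson 95% intervals for counting error. In every width class the vertices with a member are highest, reaching 58.0% on day 5 and 61.4% on day 0 above 3 kb.

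The vertex with the most edges among those with a member was chr3:96359898-96369002, which held 4 members and had 20 edges on day 5, against 28 on day 0. It was followed by chr19:29322812-29329588 (20 edges on day 5, 18 on day 0), chr3:95732020-95736530 (13 on day 5, 23 on day 0), chr19:46102058-46120962 (10 on day 5, 25 on day 0) and chr3:95461982-95465410 (18 on day 5, 17 on day 0). These vertices were 3429 to 18905 bp wide and held 26 to 64 day 0 footprints.

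The share in a PU.1 peak was larger for connected members than for the rest. In the day 5 replicates 20.1% and 19.2% of members connected on day 5 overlapped a peak, against 8.94% and 9.68% of members that were not connected. In the day 0 replicates it was 22.7% and 33.7% of members connected on day 0, against 11.5% and 17.1% of those not connected. The number of footprints in the site moved with both measures, and its part in this was not tested.

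The share of edges listed on both days was largest where both ends held a member. On day 5, 1357 of 4618 edges (29.4%) had a member at both ends, 2067 at 1 end and 1194 at neither, and on day 0 it was 1510 of 4776 (31.6%), 2117 and 1149. Of the day 5 edges with members at both ends, 48.1% were also in the day 0 list, against 38.5% with a member at 1 end and 30.1% with none. Read from day 0, 43.2% of edges with members at both ends were also in the day 5 list, against 37.6% and 31.2%. The count of shared edges with members at both ends was 653.

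Such edges were also longer. Over edges within a chromosome, their median span was 51341 bp on day 5, against 70408 bp on day 0, while edges with no member spanned 31149 bp on day 5, against 31377 bp on day 0. Within classes of span the order held. Of day 5 edges of 100 kb or more, 43.5% with members at both ends were kept, 28.9% with a member at 1 end and 20.0% with none, and of day 0 edges of that span 26.1%, 18.3% and 16.2%. The lists give no replicate values, so no test was made.

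**Figure D5:**
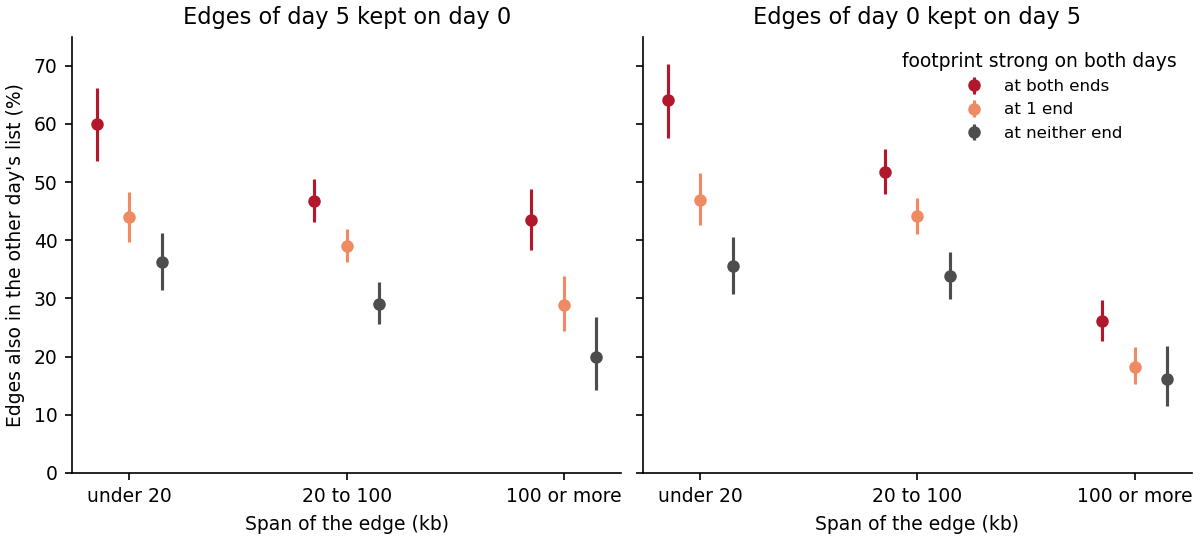
Percent of day 5 edges that are also in the day 0 list (left) and of day 0 edges that are also in the day 5 list (right), by span of the edge in kb, for edges with a member at both ends (red), at 1 end (orange) and at neither (grey), with exact Clopper-Pearson 95% intervals for counting error. In each class of span, edges with members at both ends have the largest kept share, up to 60.0% of day 5 edges and 64.1% of day 0 edges under 20 kb.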

How the data were processed

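DNase-seq, PU.1 ChIP-seq, RNA-seq and ChIA-PET files of MEL cells on day 5 and day 0 were used, with positions in mm9, and Bowtie and bedtools are named in the submitters' processing notes (Bowtie 1.0.0 and MACS2 2.0.10 for the ChIP). The footprint score (-20 down to -1000) was deposited as 1 list per day, as was the edge score. The DNase site score was deposited per replicate. None of these scores, and no footprint caller, is defined in the sources used here. PU.1 peaks were deposited per replicate with their fold enrichment and -log10 p, and the authors merged them per day by irreproducible discovery rate, a q-value per the file headers. The merged lists are also labelled NOBLKlist, apparently for the removal of blacklisted regions, and the replicate lists do not carry that label. RNA values were deposited as FPKM.

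Overlaps of at least 1 bp, shares and exact permutation tests were computed with Python 3.11.15, pandas 2.3.3, numpy 2.4.6 and scipy 1.17.1, and the overlap code was tested on simulated data. Intervals are exact Clopper-Pearson at 95% and cover counting error only. Where a footprint met several peaks, the strongest counted. Sample titles gave the groups and replicates, and p-values measure the spread between 2 replicates. The regions named were the 5 members with the lowest summed score, the 5 sites with the most members, the 5 members with the highest merged PU.1 score, the 5 connected vertices with the most edges, and 3 footprints on either side of the cutoff. The members and lists were chosen with earlier results of these data known. Other score cutoffs, overlaps, peak sets, site lists and vertex widths were tried. Input controls and genes near members were not analysed here.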

Additional observations from a re-analysis of the deposited data

How the results depend on the processing

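A cutoff of -100 or -300 gave 29779 or 10599 members. Median width was 59 bp at -100, 63 bp from day 5 footprints and 59 bp over shared bases. The share of sites with 1 member was 86.2% over day 5 sites, 77.8% at -100 and 88.7% at -300. The PU.1 difference between days reversed to 4.21 points with equal numbers of top peaks, and leaving out 1 replicate gave -9.04 to -2.32. It shrank to -2.17 points with 50 bp around summits (exact permutation p = 1.0) and to -3.51 with merged lists, and kept its direction with a -log10 p of at least 10 and at both cutoffs. With the replicate block it was -5.68 points (exact permutation p = 0.5). The numbers were not shown to pair the samples, since replicate differences of the days correlated at -0.00488 over members.

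Members minus weaker footprints on day 5 gave 0.455 points with a -log10 p of at least 10, -0.00124 with merged lists, 6.48 in sites with both kinds (5.30 by centres), and 1.78 to 4.54 with 1 replicate left out. On day 0 it gave 1.73 near summits, -1.91 with a -log10 p of at least 10, -1.72 with equal numbers of peaks, -0.0826 at -100, -0.808 at -300, -2.06 with merged lists, -1.48 by centres, 3.66 in sites with both kinds (2.86 by centres), and -1.19 to -0.905 with 1 replicate left out. The cause of these changes was not tested.

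Connected shares of members were 37.3% on day 5 and 38.9% on day 0 with 3 kb vertices, and 23.6% and 23.2% at -100. These were computed for members only, so they do not set members apart. Day 5 edges with members at both ends were kept in 56.5% with 3 kb vertices, against 50.2% with a member at 1 end and 45.8% with none. The gap on day 5 was thus narrower than with 1 kb vertices. Read from day 0, the shares with 3 kb vertices were 45.5%, 38.5% and 29.6%. The fits of genes near members and the motif search were not run.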

Other observations

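Read depth is unknown for every library, and a footprint or peak outside a list is only known not to have passed its threshold. Footprint scores end at -1000, which hides differences between the strongest members. Members that share a site, a vertex or a peak are not independent, and the intervals do not account for this. The footprint and edge lists hold no replicate values, and with 2 PU.1 replicates per day the permutation test between the days cannot go under 0.333. No sequence, motif or gene was tied to a member.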
